A study of Mus musculus with 6 samples.

Results

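The genes of glutathione and antioxidant enzymes were measured in RNA from whole mouse testes. They were taken from the deposited table of FPKM values by gene symbol. The symbols were those of the soluble glutathione S-transferases (GSTs) of the alpha, kappa, mu, omega, pi, theta and zeta classes, the microsomal GSTs, the glutathione peroxidases, the peroxiredoxins, all names that begin with Txn, the superoxide dismutases, catalase, the enzymes that make and recycle glutathione, Nqo1, the haem oxygenases and Nfe2l2. This gave 61 of 14998 genes in the table. Of 69 protein-coding genes in GENCODE M21 whose symbols fit, the 8 others, which include Gsta1, Gpx2, Gpx5 and Mgst2, were not analysed here.

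Glutathione is a small thiol that cells make in a pair of enzymatic steps and use as an electron donor. GSTs join it to electrophiles, glutathione peroxidases spend it to reduce peroxides, and glutathione reductase restores it. Thioredoxin and the peroxiredoxins form a parallel system that draws on thioredoxin reductase, and superoxide dismutases and catalase act on oxygen species directly. NRF2, the product of Nfe2l2, is a transcription factor that binds antioxidant response elements and drives many of these genes. In the testis, Leydig cells are known for high GST levels, and Sertoli cells supply antioxidant protection to germ cells.

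The 3 control libraries came from mice with floxed Lats1 and Lats2 on both chromosomes, and the 3 knockout libraries from mice with the same floxed alleles and Amh-cre, which drives Cre recombinase from the promoter of the anti-Müllerian hormone gene in Sertoli cells. LATS1 and LATS2 are Hippo pathway kinases. The driver is aimed at Sertoli cells, and the deletion was not measured by cell type here. The labels give male sex and testes as the tissue, but not the age. Nor do they tie each library to its own animal, so the tests weigh differences against a spread that may be technical. The series' design text names adrenal glands instead. Lats1 fell from 15.7 ± 0.569 to 12.7 ± 0.239 FPKM (SD, n = 3 each, limma adjusted p = 0.000474), whereas Lats2 had 15.4, 14.5 and 17.0 FPKM in control libraries against 17.8, 18.2 and 18.1 FPKM in knockout libraries (adjusted p = 0.0126), which goes against its label. Both levels cover all exons and all testis cells, and which exons are floxed is not labelled, so neither checks the deletion. Every direction below is drawn from the labels, and knockout libraries are those labelled knockout.

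Values are FPKM as deposited, a read density corrected for exon length and for library depth. Levels of different genes compare less well where transcript sequence is shared with other annotated genes. Of the 61 genes, 14 share over 10% of short runs of their sequence (49.8% in Gsta2, 34.7% in Gpx4), and 25, Gpx1 and Gpx8 among them, share none. How reads from shared sequence were counted is not given in the sources used here. Ranks, sums and shares of levels below hold for the deposited values. The totals that the FPKM imply were 9490735 to 13620088 reads per library, and 48 of the 61 genes had at least 100 reads in every library. Markers of other testis cells also differed between the groups. All 15 macrophage markers were higher, with a summed level of 76.6 to 87.6 FPKM in control libraries against 602 to 697 FPKM in knockout libraries. Leydig cell markers were lower in 10 of 10 cases (878 to 973 against 388 to 441 FPKM), germ cell markers in 10 of 11 tested (314 to 388 against 67.9 to 123 FPKM) and Sertoli cell markers in 11 of 13, with 2 higher (460 to 495 against 217 to 248 FPKM). Within the Sertoli cell list, log2 fold changes ran from -5.06 (Amh, 66.1 ± 2.71 to 1.03 ± 0.374 FPKM) to 1.52 (Cldn11), so its sum covers unlike changes. No marker in these lists was at 0 in all libraries of a group. Interstitial fibroblast markers were lower in 4 of 7 cases (504 to 568 against 413 to 432 FPKM), and mesothelial markers were higher in 5 of 5 (35.8 to 37.0 against 195 to 213 FPKM). Among smooth muscle markers 3 were higher and 2 lower of 6 (149 to 175 against 214 to 239 FPKM), and among endothelial markers 3 were higher and 2 lower of 7 (101 to 108 against 110 to 125 FPKM). None of 5 erythroid markers passed the test at an adjusted p of 0.05 (74.8 to 94.6 against 87.4 to 103 FPKM), and of 2 epididymal markers found 1 was lower (3.43 to 4.23 against 2.47 to 4.23 FPKM). In a whole organ, fewer cells of a type and less RNA per cell cannot be told apart, and the part of these markers in the results below was not tested.

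The genes moved in both directions. Of 60 with a mean of at least 1 FPKM, 20 were higher and 23 lower in knockout libraries at an adjusted p of 0.05 (limma on log2(FPKM + 1), Benjamini-Hochberg adjustment over all genes tested), and 17 did not pass. Without control replicate 3, the highest control library in Txnrd2, Txnrd3 and Hmox2, the counts were 20 higher and 23 lower. Over all 13778 genes tested, 35.2% were higher and 33.7% lower, 68.9% in all, against 33.3% and 38.3% here, 71.7% in all. The share of these genes that changed was therefore near that of the transcriptome, and what follows is about which ones and by how much. Their median log2 fold change was -0.01, against 0.01 over all genes tested. Larger falls were more frequent than larger rises, with 15 genes lower by at least 0.58 on the log2 scale and 4 higher by as much, where 14.6% and 13.3% of all genes did so. GST genes gave 10 of these falls and 1 of these rises. The 40 members outside the GSTs gave 5 and 3, and leaned the other way at the threshold, with 17 higher and 9 lower (42.5% and 22.5%). Among all 60 genes the groups did not overlap in 20 that were higher and 25 that were lower, against 74.3% of all genes tested (37.9% higher and 36.3% lower).

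**Figure D1:**
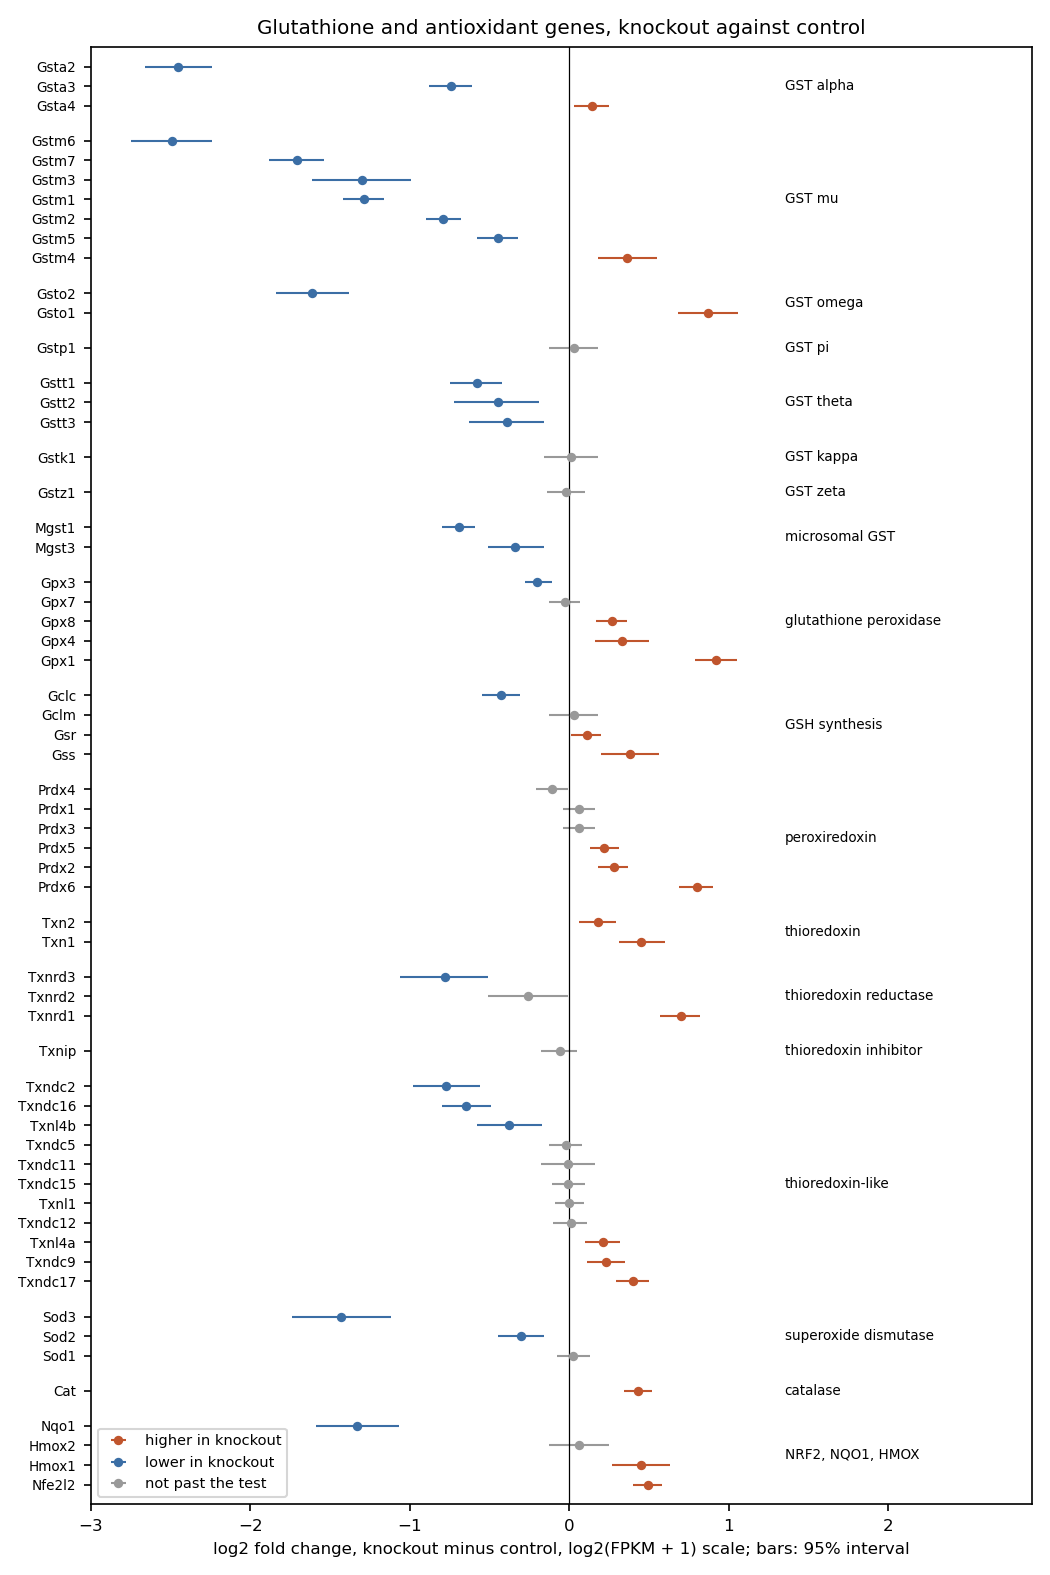
Log2 fold change of the 60 tested genes, knockout minus control on the log2(FPKM + 1) scale, ordered by enzyme class. Points are limma estimates from 3 libraries per group and bars 95% intervals. Falls reach -2.49 (Gstm6) and rises 0.92 (Gpx1), and most GST genes lie left of 0.

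GST genes were mostly lower. Of 20 tested, 14 fell, 3 rose and 3 did not pass, a fall in 70% where 33.7% of all genes fell, with a median log2 fold change of -0.52. Among the 14, Gstt2, Gstt3 and Mgst3 did not pass in the authors' deposited table. Their summed level was 508, 482 and 491 FPKM in control libraries against 330, 317 and 325 FPKM in knockout libraries, 1.52-fold less. The mu class took 52.2% to 52.8% of that sum in control and 34.5% to 37.0% in knockout libraries, and the alpha class 21.9% to 22.6% and 30.1% to 30.5%. The fall of the sum thus lay largely in the mu genes, whose own sum went from 260 ± 7.33 to 115 ± 6.33 FPKM.

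**Figure D2:**
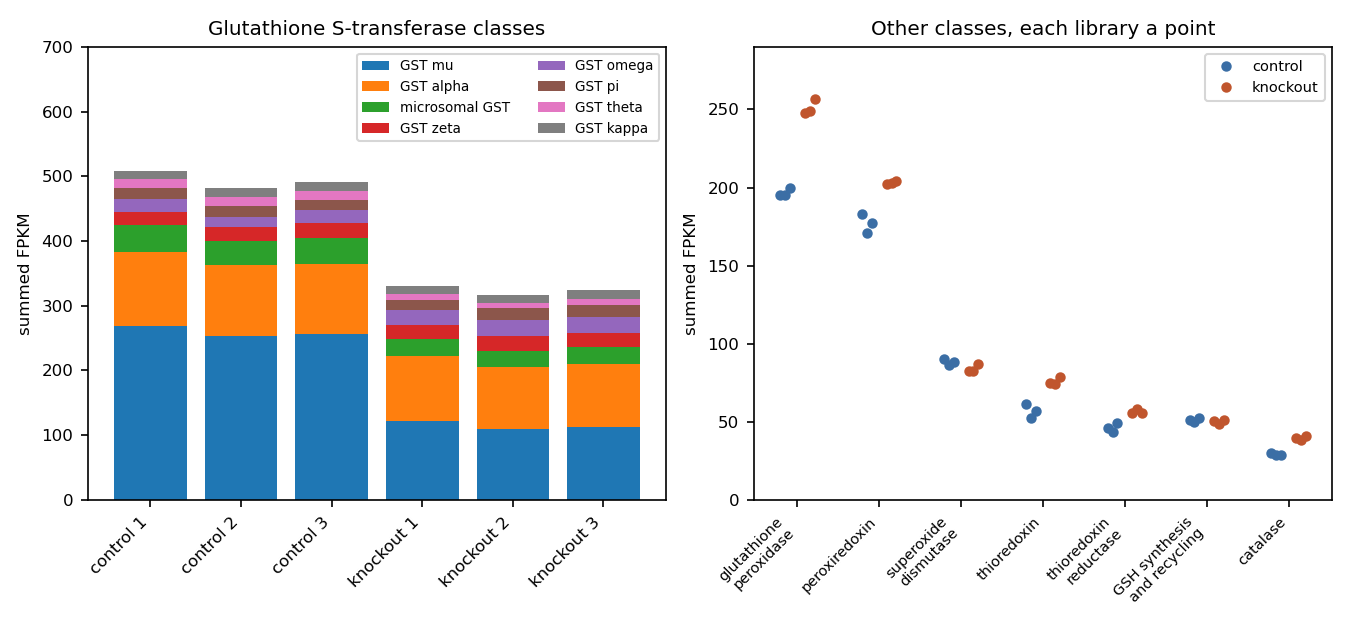
Left, summed FPKM of each GST class in each library as stacked bars. Right, summed FPKM of other enzyme classes, each point a library. The GST sum lies between 482 and 508 in control and between 317 and 330 in knockout libraries, while the glutathione peroxidase and peroxiredoxin sums are higher in all 3 knockout libraries.

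The mu class is a family of cytosolic conjugating enzymes encoded side by side on chromosome 3. The 7 genes lie between 107895821 and 108044894 on GRCm38, a span of 149 kb. Of the 7, 6 fell. Gstm1, the mu gene with the highest level in control libraries, had 92.0, 82.4 and 81.2 FPKM in control libraries against 35.6, 32.8 and 33.9 FPKM in knockout libraries. Gstm2 had 57.6, 55.7 and 56.5 FPKM and then 34.1, 32.5 and 30.5 FPKM. The fall was 2.50-fold for Gstm1 (adjusted p = 2.65e-07) and 1.75-fold for Gstm2 (adjusted p = 1.45e-06).

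Gstm6 and Gstm7 fell further. Gstm6 had 42.1, 42.6 and 40.2 FPKM in control libraries against 8.16, 6.37 and 5.41 FPKM in knockout libraries, 6.26-fold less (log2 fold change -2.49, SE 0.11, adjusted p = 2.82e-07). Gstm7 had 35.7, 35.0 and 34.7 FPKM against 11.2, 8.82 and 10.2 FPKM, 3.48-fold less. In both genes every knockout library lay below every control library by a wide margin. Gstm5, at the end of the cluster and on the opposite strand to the others, had 32.9, 31.4 and 35.9 FPKM in control libraries against 25.3, 23.2 and 23.9 FPKM in knockout libraries (adjusted p = 0.000129). Gstm3 was low throughout, at 2.42, 2.11 and 2.85 FPKM against 0.524, 0.520 and 0.190 FPKM, and rested on 32 to 48 reads per control and 3 to 9 reads per knockout library. Its log2 fold change was -1.30 at a pseudocount of 1 FPKM, -2.40 at a pseudocount of 0.1 FPKM and -2.60 in limma-voom on recovered reads.

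Gstm4, at the other end of the cluster, went the other way, with 5.37, 5.20 and 5.28 FPKM in control libraries against 7.18, 6.26 and 7.91 FPKM in knockout libraries (log2 fold change 0.36, SE 0.08, adjusted p = 0.00359). The order of the mu genes by level therefore changed. Gstm6 exceeded Gstm4 by 7.63 to 8.19 times in control libraries, and in knockout libraries the ratio was 1.14, 1.02 and 0.684. Near-identical copies limit how well reads of this family can be told apart. Of the 50-base words in its transcripts, Gstm3 shares 28.8% and Gstm1 18.9% with other annotated genes, whereas Gstm2, Gstm6 and Gstm7 share 5.65%, 5.97% and 0.532% and Gstm4 none. Gstm5 shares 13.9% of its exon bases with 4933431E20Rik on the opposite strand, and the strand setting of the counting is not given in the sources used here. 4933431E20Rik fell from 5.85 ± 0.347 to 2.38 ± 0.309 FPKM (limma adjusted p = 1.26e-05), and its part in the Gstm5 level was not tested.

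**Figure D3:**
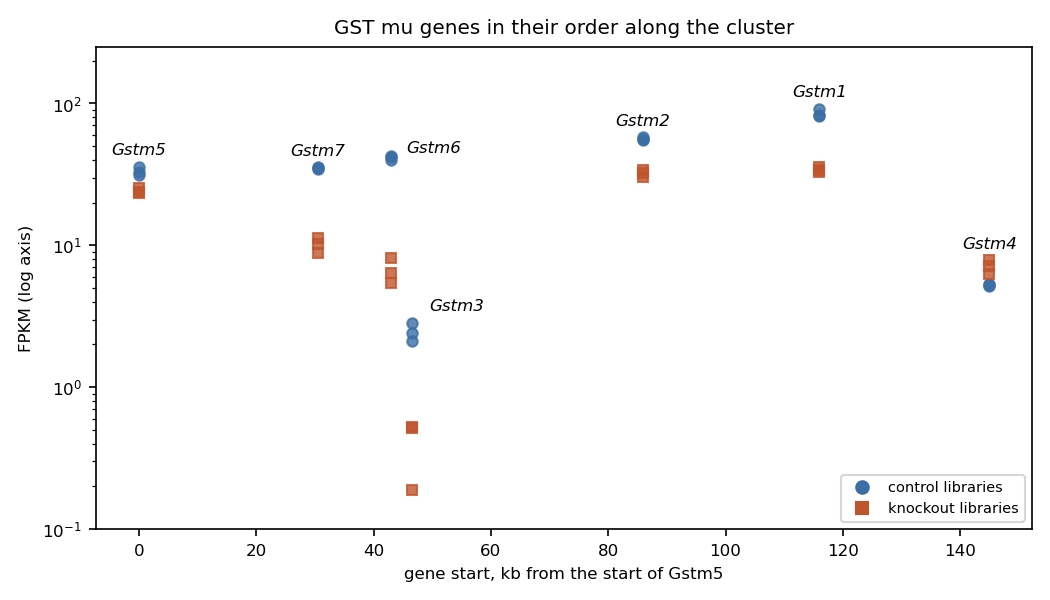
FPKM (log axis) of the 7 GST mu genes in each library, placed by the distance of their start from that of Gstm5 in kb. Circles are control and squares knockout libraries. Knockout values lie below control values in 6 genes, most in Gstm6 and Gstm3, and above them in Gstm4.

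The alpha class, known for reducing lipid peroxides and binding steroids and bilirubin, was split. Gsta2 had 13.2, 11.6 and 11.4 FPKM in control libraries against 1.45, 1.15 and 1.57 FPKM in knockout libraries, 8.69-fold less (adjusted p = 1.15e-07), the largest fold among the 61 genes as a ratio of mean FPKM. Gsta3, whose human counterpart isomerises a steroid intermediate, had 22.8, 23.4 and 20.5 FPKM against 12.2, 13.5 and 12.9 FPKM (adjusted p = 7.77e-06). These falls ran beside those of the Leydig, Sertoli, germ cell and interstitial fibroblast markers given above, and the part of these markers was not tested. Gsta4, which acts on the lipid aldehyde hydroxynonenal, had 78.7, 74.2 and 75.4 FPKM in control libraries against 87.1, 81.0 and 84.0 FPKM in knockout libraries. The rise of Gsta4 was small (0.14 on the log2 scale, adjusted p = 0.0238) and no longer passed without control replicate 3, knockout replicate 1 or knockout replicate 3 (adjusted p = 0.0649, 0.0956 and 0.0771). Gsta4 made up 67.9% to 70.3% of the alpha sum in control and 84.7% to 86.4% in knockout libraries. Of the Gsta2 words, 49.8% are shared with other genes, chiefly Gsta1.

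The omega genes, which encode enzymes that reduce dehydroascorbate, moved apart. Gsto1 had 13.4, 10.7 and 13.2 FPKM in control libraries against 22.1, 23.7 and 24.7 FPKM in knockout libraries, 1.89-fold more (adjusted p = 2.10e-05). Its neighbour Gsto2 had 5.57, 5.02 and 5.65 FPKM and then 0.942, 0.992 and 1.37 FPKM, 4.92-fold less (adjusted p = 1.87e-06). The ratio of Gsto1 to Gsto2 was 2.13 to 2.40 in control and 18.1 to 23.9 in knockout libraries.

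All 5 theta and microsomal genes tested fell, and the zeta, pi and kappa genes tested did not pass. Gstt1 had 6.62, 6.53 and 6.87 FPKM in control libraries against 4.35, 4.33 and 3.70 FPKM in knockout libraries (adjusted p = 0.000125). Gstt2 and Gstt3 also fell, 1.48-fold and 1.51-fold, from 4.37 ± 0.229 and 2.43 ± 0.337 FPKM (adjusted p = 0.00766 and 0.00869). Mgst1, a membrane-bound transferase and peroxidase of the endoplasmic reticulum and outer mitochondrial membrane, had 32.2, 29.9 and 31.6 FPKM against 19.6, 18.5 and 18.6 FPKM (adjusted p = 2.22e-06). Mgst3 fell 1.31-fold from 8.51 ± 0.823 FPKM (adjusted p = 0.00392). In the authors' deposited table Gstt2, Gstt3 and Mgst3 did not pass, with an FDR of 0.11, 0.0773 and 0.177. The zeta, pi and kappa genes had overlapping groups. Gstz1, an isomerase of tyrosine breakdown, had 21.5, 21.2 and 24.0 FPKM in control libraries against 21.5, 22.6 and 21.5 FPKM in knockout libraries. Gstp1 had 16.4, 16.1 and 15.8 FPKM and then 14.6, 18.0 and 16.7 FPKM, with a 95% interval of its log2 fold change from -0.13 to 0.18. Gstk1, of mitochondria and peroxisomes, had 13.1, 13.3 and 13.4 FPKM against 12.3, 12.7 and 15.3 FPKM. Gstp2 was under the filter, at 0.385 to 1.62 FPKM over the 6 libraries, and shares 54.3% of its words with other genes, chiefly Gstp1.

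Glutathione peroxidases rose in 3 of 5 cases, and their summed level went from 197 ± 2.53 to 251 ± 5.14 FPKM. Gpx1, the cytosolic selenoenzyme that reduces hydrogen peroxide, had 42.2, 44.9 and 46.7 FPKM in control libraries against 80.3, 85.3 and 90.3 FPKM in knockout libraries, 1.91-fold more (log2 fold change 0.92, SE 0.06, adjusted p = 1.76e-06). Its share of the peroxidase sum was 21.6% to 23.4% in control and 32.4% to 35.1% in knockout libraries. Gpx8, a peroxidase of the endoplasmic reticulum and the one with the highest level, had 82.2, 84.4 and 85.1 FPKM and then 103, 99.3 and 102 FPKM (adjusted p = 0.000432). Gpx4, which reduces lipid hydroperoxides in membranes and is a structural protein of sperm, rose 1.30-fold from 5.59 ± 0.517 FPKM (adjusted p = 0.00406), and shares 34.7% of its words with the pseudogene Gpx4-ps2. Gpx7, which like Gpx8 resides in the endoplasmic reticulum, did not pass, at 30.2, 27.9 and 28.3 FPKM against 28.9, 27.6 and 28.1 FPKM. The secreted Gpx3 fell slightly, from 34.6, 33.2 and 33.7 to 28.6, 29.9 and 29.6 FPKM (adjusted p = 0.00163). In the authors' deposited table Gpx3 did not pass, with an FDR of 0.105. Gpx1 rose beside the macrophage and mesothelial markers, whose part was not tested.

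The enzymes of glutathione synthesis did not move together. Gclc, the catalytic subunit of the rate-limiting ligase, had 16.0, 15.2 and 17.2 FPKM in control libraries against 12.1, 11.6 and 11.6 FPKM in knockout libraries, 1.37-fold less (adjusted p = 0.000116). Its modifier subunit Gclm had 9.18, 9.06 and 8.17 FPKM against 9.44, 8.33 and 9.18 FPKM and did not pass. The ratio of Gclc to Gclm was 1.68 to 2.10 in control and 1.26 to 1.39 in knockout libraries. Gss, which completes the tripeptide, rose 1.39-fold from 3.27 ± 0.230 FPKM (adjusted p = 0.00218), and 15.4% of its exon bases are covered by genes on the opposite strand. Gsr, the reductase that regenerates glutathione, had 22.8, 22.5 and 23.8 FPKM and then 24.6, 24.4 and 25.6 FPKM. Its call was at the threshold (adjusted p = 0.0444), and 5 of the 6 fits that left out a library gave 0.0686 to 0.163. In the authors' deposited table Gsr had an FDR of 0.0866.

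Peroxiredoxins are abundant thiol peroxidases spread over the compartments of the cell. Of 6, 3 rose and none fell. Prdx6, which also has phospholipase activity and takes its electrons from glutathione, had 22.3, 20.2 and 21.4 FPKM in control libraries against 36.5, 38.6 and 38.2 FPKM in knockout libraries, 1.77-fold more (adjusted p = 1.25e-06). Prdx2 of the cytosol had 23.5, 21.6 and 23.1 FPKM against 27.6, 27.8 and 27.9 FPKM (adjusted p = 0.000409). Prdx5, found in mitochondria and peroxisomes, had 23.8, 22.6 and 23.7 FPKM and then 27.8, 27.1 and 27.1 FPKM (adjusted p = 0.000957). In these 3 genes all knockout libraries exceeded all control libraries. Genes on the opposite strand cover 11.5% of the exon bases of Prdx2 (Junb and Rnaseh2a) and 19.1% of those of Prdx5 (Trmt112). Prdx1 had 30.9, 28.3 and 29.7 FPKM in control libraries against 30.3, 30.7 and 31.8 FPKM in knockout libraries. The mitochondrial Prdx3, highest of the family in control libraries, had 51.0, 48.8 and 46.8 FPKM against 51.1, 51.5 and 50.2 FPKM. Neither passed, with 95% intervals from -0.04 to 0.16 for both. Prdx4 of the endoplasmic reticulum had 31.5, 29.1 and 31.9 FPKM and then 28.6, 27.7 and 29.0 FPKM, groups that did not overlap but did not pass (adjusted p = 0.0567, 0.0120 without control replicate 2, and 0.0471 in limma-voom on recovered reads).

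Thioredoxins rose, and their reductases split. Txn1, the cytosolic thioredoxin, had 50.6, 42.5 and 46.1 FPKM in control libraries against 62.9, 62.3 and 66.4 FPKM in knockout libraries, 1.38-fold more (adjusted p = 0.000236). The mitochondrial Txn2 had 10.4, 10 and 11 FPKM against 11.8, 11.9 and 12.2 FPKM (adjusted p = 0.0132, and 0.0550 without knockout replicate 3). Txnrd1, the cytosolic reductase, had 29.3, 26.8 and 25.6 FPKM and then 43.2, 46.4 and 44.3 FPKM, 1.64-fold more (adjusted p = 7.18e-06). The remaining reductases were lower or did not pass. Txnrd3, a thioredoxin and glutathione reductase with a high level in germ cells, had 11.5, 10.9 and 15.9 FPKM in control libraries against 7.35, 6.67 and 6.66 FPKM in knockout libraries, 1.85-fold less (adjusted p = 0.000457). The mitochondrial Txnrd2 had 5.49, 5.53 and 7.58 FPKM against 5.12, 4.88 and 4.86 FPKM (adjusted p = 0.0591). Control replicate 3 was the highest library in both genes. Txnrd2 passed without control replicate 1 or 2 (adjusted p = 0.0419 and 0.0452) and in limma-voom on recovered reads (adjusted p = 0.0401). Txnrd1 made up 52.2% to 63.2% of the reductase sum in control and 77.6% to 80.1% in knockout libraries. Txnip, which binds and inhibits thioredoxin, had 67.0, 62.4 and 68.4 FPKM and then 62.5, 60.7 and 66.2 FPKM, groups that overlapped, and shares 15.7% of its words with Gm15441 on the opposite strand.

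Proteins with a thioredoxin fold that serve other functions moved in both directions, with 3 of 11 higher, 3 lower and 5 not past the test. Txndc17, a cytosolic disulfide reductase, had 33.3, 30.9 and 31.9 FPKM in control libraries against 42.7, 40.8 and 44.0 FPKM in knockout libraries (adjusted p = 6.93e-05). Txnl4a, a spliceosome subunit, had 15.5, 14.5 and 15.5 FPKM against 17.3, 17.1 and 18.7 FPKM (adjusted p = 0.00484). Txndc9, a partner of the chaperonin that folds tubulin and actin, had 10.5, 9.65 and 10.1 FPKM and then 12.5, 11.9 and 11.7 FPKM (adjusted p = 0.00375). All 3 rises were small, from 1.17-fold to 1.33-fold. Txndc16, of the endoplasmic reticulum, fell from 10.1, 9.31 and 10.5 to 5.98, 5.58 and 6.43 FPKM (adjusted p = 4.24e-05). Txndc2, a thioredoxin of the sperm tail, had 2.16, 2.05 and 2.09 FPKM against 0.855, 0.715 and 0.883 FPKM, 2.57-fold less (adjusted p = 8.88e-05). Its fall and that of Txnrd3 ran beside those of the germ cell, Sertoli, Leydig and interstitial fibroblast markers, whose part was not tested. Txnl4b fell 1.35-fold from 7.83 ± 0.961 FPKM (adjusted p = 0.00538), and did not pass in the authors' deposited table (FDR of 0.0553). The 5 others, Txndc5, Txndc11, Txndc12, Txndc15 and Txnl1, had overlapping groups and log2 fold changes from -0.02 to 0.01, at mean levels from 6.54 to 45 FPKM in knockout libraries.

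Superoxide dismutases, which turn superoxide into hydrogen peroxide, differed by compartment. The cytosolic Sod1, at 73.4, 69.8 and 72.0 FPKM in control libraries against 70.6, 72.5 and 75.8 FPKM in knockout libraries, did not pass, with a 95% interval from -0.08 to 0.13. The mitochondrial Sod2 had 13.1, 12.1 and 13.2 FPKM against 10.7, 9.30 and 10.6 FPKM (adjusted p = 0.00280), and shares 21% of its 50-base words with other genes. The secreted Sod3 had 3.72, 4.24 and 3.01 FPKM and then 0.977, 0.685 and 0.519 FPKM, 5.03-fold less as a ratio of means (adjusted p = 2.24e-05). On the log2(FPKM + 1) scale its change was -1.43, and -2.34 in limma-voom on recovered reads, which came to 126 to 206 per control and 21 to 43 per knockout library. Catalase, the peroxisomal enzyme that breaks down hydrogen peroxide, rose from 30, 28.9 and 28.6 to 39.5, 38.6 and 40.7 FPKM, 1.36-fold (adjusted p = 1.78e-05).

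**Figure D4:**
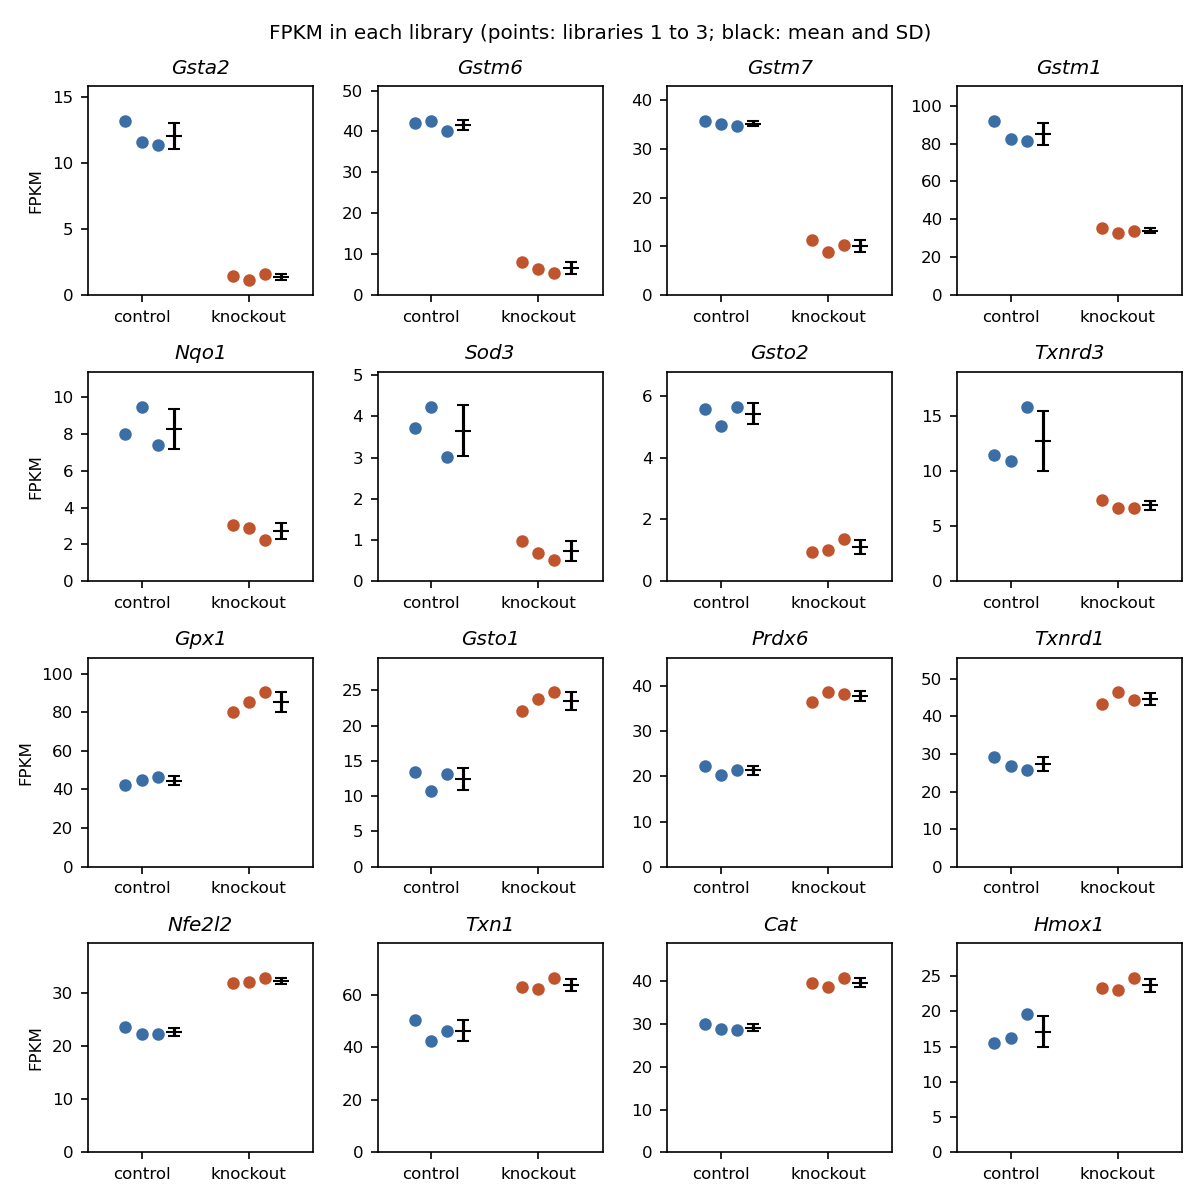
FPKM of 16 genes in each library, with axes that start at 0 and differ between panels. Coloured points are the 3 libraries of a group and black marks the mean with its SD. In the upper 8 genes every knockout library lies below every control library, and in the lower 8 above it.

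NRF2 and 2 genes widely used as readouts of it did not share a direction. Nfe2l2 had 23.6, 22.3 and 22.2 FPKM in control libraries against 31.8, 32.1 and 32.8 FPKM in knockout libraries, 1.42-fold more (adjusted p = 9.32e-06). Hmox1, the inducible enzyme that degrades haem, had 15.5, 16.2 and 19.6 FPKM against 23.3, 23.0 and 24.7 FPKM, 1.38-fold more (adjusted p = 0.000902). Nqo1, a quinone reductase, had 8.01, 9.50 and 7.39 FPKM and then 3.03, 2.86 and 2.22 FPKM, 3.07-fold less (log2 fold change -1.33, SE 0.11, adjusted p = 1.13e-05). Hmox2, the constitutive haem oxygenase, had 20.8, 20.6 and 26.0 FPKM against 23.6, 22.7 and 23.6 FPKM and did not pass (adjusted p = 0.545, and 0.00569 without control replicate 3). Hmox2 shares 41.9% of its 50-base words with other genes, chiefly Cdip1, which covers 40.2% of its exon bases on the opposite strand. An RNA level of Nfe2l2 does not measure the activity of NRF2, which is set largely by protein breakdown through KEAP1. Hmox1 rose beside the macrophage and mesothelial markers, and Nqo1 fell beside the Leydig, Sertoli, germ cell and interstitial fibroblast markers. The part of these markers was not tested.

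Promoter letters were examined for the motif that NRF2 binds, written TGACNNNGC on either strand. RefSeq windows on GRCm38.p6, from 250 bases before to 50 after a start site, were found for 52 of the 61 genes, and 9 had a match. Where RefSeq gave a gene several windows, the one nearest the 5′ end of the gene in the deposited table was used, and 9 of the 52 start sites lay over 200 bases from that end. That is 17.3% of these windows, against 12.4% of all 32851 promoter windows. The 9 included 2 genes that rose (Txnrd1 and Nfe2l2), 3 that fell (Gsta3, Gstm5 and Mgst1) and 4 that did not pass (Gclm, Prdx1, Sod1 and Txndc11). Of these windows 5 are shown, 2 of genes that rose, 2 of genes that fell and 1 of a gene that did not pass, with the match in capitals. They are chr10:82858956-82859255 (plus strand) for Txnrd1, chr2:75704614-75704913 (minus strand) for Nfe2l2, chr1:21240335-21240634 (plus strand) for Gsta3, chr3:107895604-107895903 (plus strand) for Gstm5 and chr3:122245307-122245606 (plus strand) for Gclm.
Txnrd1: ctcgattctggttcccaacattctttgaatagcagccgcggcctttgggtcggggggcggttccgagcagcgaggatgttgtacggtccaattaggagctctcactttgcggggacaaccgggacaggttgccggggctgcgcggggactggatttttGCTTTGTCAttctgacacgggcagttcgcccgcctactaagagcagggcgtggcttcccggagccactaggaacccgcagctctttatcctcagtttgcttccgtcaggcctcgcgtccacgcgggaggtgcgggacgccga
Nfe2l2: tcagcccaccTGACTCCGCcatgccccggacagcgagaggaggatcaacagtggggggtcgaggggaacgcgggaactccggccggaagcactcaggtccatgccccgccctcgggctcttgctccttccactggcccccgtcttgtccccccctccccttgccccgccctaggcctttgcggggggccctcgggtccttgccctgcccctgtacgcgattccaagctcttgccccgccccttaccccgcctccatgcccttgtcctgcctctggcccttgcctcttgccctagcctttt
Gsta3: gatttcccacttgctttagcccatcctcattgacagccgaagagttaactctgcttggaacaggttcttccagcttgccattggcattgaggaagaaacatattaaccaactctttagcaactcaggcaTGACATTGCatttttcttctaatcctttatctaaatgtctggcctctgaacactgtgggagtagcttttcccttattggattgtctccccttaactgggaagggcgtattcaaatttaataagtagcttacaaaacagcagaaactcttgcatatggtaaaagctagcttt
Gstm5: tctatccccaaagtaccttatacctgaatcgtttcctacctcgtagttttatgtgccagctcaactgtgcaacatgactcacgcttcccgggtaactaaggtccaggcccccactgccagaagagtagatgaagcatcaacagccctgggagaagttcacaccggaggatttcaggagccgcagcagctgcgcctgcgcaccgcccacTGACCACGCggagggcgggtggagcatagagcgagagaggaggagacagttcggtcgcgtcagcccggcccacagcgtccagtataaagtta
Gclm: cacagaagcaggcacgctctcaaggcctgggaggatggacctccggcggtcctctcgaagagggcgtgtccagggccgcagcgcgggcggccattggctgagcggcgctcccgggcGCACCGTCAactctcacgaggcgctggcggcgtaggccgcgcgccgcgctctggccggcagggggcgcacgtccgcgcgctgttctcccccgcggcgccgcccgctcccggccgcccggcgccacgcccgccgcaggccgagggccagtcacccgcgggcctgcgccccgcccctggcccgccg
Counted from the start site to the first base of the match, the capitals begin at -92 in Txnrd1, -240 in Nfe2l2, -121 in Gsta3, -42 in Gstm5 and -134 in Gclm. The match was on the plus strand of the gene in Nfe2l2, Gsta3 and Gstm5 and on the reverse strand in Txnrd1 and Gclm. Nqo1 had no match in its window, which would miss any site more than 250 bases before the start. The 9 genes with no window, and so not scanned, were Gclc, Gsr, Gsta4, Gstt2, Hmox1, Prdx6, Sod3, Txnl1 and Txnl4a. The motif TGANTCA, bound by AP-1 factors, was in 4 of the 52 windows (7.69%, against 7.81% of all), and of the 9 NRF2-type matches 1, in Prdx1, shared bases with it. GGAATG, the core that TEAD factors bind with YAP, was in 9 windows (17.3%, against 14.7% of all). Of these genes, Gpx8 and Txn2 rose, Gstm2, Gstm7 and Txndc2 fell, and Txndc11, Txndc12, Txndc15 and Txnrd2 did not pass. Between windows of the mu genes the identity was 50% to 57.3%, and between mu genes and members outside the GSTs 47.3% to 56.3%.

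Genes around these enzymes were read from 5 lists. Over all genes tested 35.2% rose and 33.7% fell, 68.9% in all. Of 21 tested genes that are NRF2 targets, encode its partners or supply NADPH, 9 rose and 5 fell (42.9% and 23.8%). Their median log2 fold change was 0.09, against 0.01 over all genes, and the share called, 66.7%, was near that of all genes. Aldh3a1 and Slc7a11, also listed, averaged under 1 FPKM and were not tested. Aldh3a1 went from 1.17 ± 0.424 to 0.0741 ± 0.0253 FPKM and Slc7a11 from 1.28 ± 0.0711 to 0.348 ± 0.0662 FPKM, and neither had overlapping groups. Mafk, a small MAF partner of NRF2, rose from 10.6 ± 0.554 to 27.5 ± 0.359 FPKM, and Bach1, a repressor of the same elements, from 12.1 ± 0.515 to 22.4 ± 0.928 FPKM. The exporter gene Abcc4 and the epoxide hydrolase gene Ephx1 fell, to 4.03 ± 0.224 and 17.9 ± 0.901 FPKM. These 4 had adjusted p-values from 9.22e-08 to 5.11e-05.

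Among 21 tested genes of glutathione turnover and thiol exchange 12 rose and 5 fell (57.1% and 23.8%, median 0.31). Ggt1 and Chac1 were under the filter and not tested. Ggt1 went from 0.859 ± 0.278 to 0.281 ± 0.249 FPKM and Chac1 from 0.192 ± 0.123 to 1.6 ± 0.104 FPKM. Hpgds, a sigma-class GST that makes prostaglandin D, rose 8.07-fold to 13.0 ± 0.506 FPKM (adjusted p = 6.68e-08). Alox5ap, of leukotriene synthesis, rose 7.45-fold to 27.5 ± 2.36 FPKM. Both are also expressed in macrophages and mast cells. They rose beside the macrophage and mesothelial markers, and the part of these markers was not tested. Chac2, which degrades glutathione, and the glutaredoxin gene Glrx fell, 1.63-fold and 1.35-fold.

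Of 18 genes listed as sources of superoxide and hydrogen peroxide, 14 were in the table and tested. Of these 8 rose and 4 fell (57.1% and 28.6%, median 0.67). The phagocyte oxidase genes Cybb and Ncf1 both rose 11.1-fold, to 15.9 ± 2.12 and 20.4 ± 2.41 FPKM. This ran beside the macrophage and mesothelial markers, whose part was not tested. Xdh, which encodes xanthine dehydrogenase, fell 5.17-fold from 5.01 ± 0.202 FPKM (adjusted p = 7.77e-07), and the monoamine oxidase gene Maoa fell 1.21-fold. Of 14 iron and haem genes tested 8 rose and 3 fell (57.1% and 21.4%, median 0.27). Hpx and Cd163 were under the filter and not tested, and went from 0.595 ± 0.335 to 1.18 ± 0.264 and from 0.284 ± 0.0961 to 1.09 ± 0.396 FPKM. The phagosome metal transporter gene Slc11a1 rose 8.44-fold to 4.90 ± 0.674 FPKM, and the haem transporter gene Slc48a1 2.05-fold to 14.9 ± 1.10 FPKM. Alas1, which starts haem synthesis, fell from 34.1 ± 3.58 to 18.2 ± 1.30 FPKM, and the iron transporter gene Slc11a2 fell 1.51-fold.

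Selenoprotein genes bear on Gpx1, Gpx4 and the thioredoxin reductases, which need selenium. Of 11 tested 5 rose and 2 fell (45.5% and 18.2%, median 0.11), 63.6% in all, where 68.9% of all genes were called. Sepp1 (selenoprotein P, the plasma carrier of selenium) rose from 44.6 ± 2.21 to 84.6 ± 6.30 FPKM, and Sepn1 rose 1.47-fold to 29.8 ± 1.60 FPKM. Sephs1 and Sepsecs fell 1.18-fold and 1.20-fold (adjusted p = 0.00385 and 0.0196).

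The authors' own test was set beside this one. Of the 61 genes, 19 were higher and 18 lower in the authors' deposited table at an FDR of 0.05, where 31.3% and 29.2% of all genes in the table were. Of the 60 genes tested here 54 had the same call in the authors' deposited table and none the opposite one. The 6 others, Gpx3, Gsr, Gstt2, Gstt3, Mgst3 and Txnl4b, passed here and not there.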

How the data were processed

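RNA from 3 control and 3 knockout testis libraries was sequenced. STAR made the alignments, per the labels' protocols, and GRCm38 is the build in the submitters' processing notes. How reads were counted, and with which strand setting, is not given in the sources used here. Per the file headers, the authors computed the FPKM of each library and, for their own comparison, p-values with FDR, −log10 p-values, log2 fold changes and the log2 of group means.

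The 13778 genes averaging 1 FPKM or more were tested on log2(FPKM + 1) by limma-trend (limma 3.58.1, R 4.3.3), two-sided, and called at a Benjamini-Hochberg adjusted p under 0.05. No count test was the main test because FPKM are not counts. Folds are ratios of mean FPKM, and log2 fold changes on this scale understate low genes. Whole reads were recovered from the FPKM with exon lengths of GENCODE M21 for 100% of genes (tolerance 0.003 reads, 47.7% at the annotated length). For the rest the smallest whole reads were taken, so a common factor would be missed. They served limma-voom with trimmed-mean scaling. Shared 50-base words and exons were counted in GENCODE M21. Promoter sequences are from RefSeq (GRCm38.p6), and coordinates count from 1. The gene rule, the lists and the markers were chosen with earlier results of these data known. Named genes are those with a mean of at least 10 FPKM in either group or a called log2 fold change of at least 0.58 in size, and from each list the 2 with the smallest p in each direction, other members being given more briefly. List genes under the filter and the ends of the Sertoli marker range are named as well. Replicate numbers did not pair the libraries. The fit was tested on simulated data. Python 3.11.15, pandas 2.3.3 and matplotlib 3.10.9 made tables and figures.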

Additional observations from a re-analysis of the deposited data

How the results depend on the processing

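Under 13 alternatives (pseudocounts of 0.1 and 0.5 FPKM, other filters, median-ratio scaling, limma-voom on recovered reads, a replicate block, and leaving out each library), 40 of the 43 genes called kept their direction and their side of the threshold wherever they were tested. The others, Gsr, Gsta4 and Txn2, kept their direction. Leaving out 1 library gave 17 to 20 of these genes higher and 23 to 25 lower, and 4343 to 5039 higher and 4206 to 4545 lower over all genes. When testing was limited to genes averaging 10 FPKM or more, 17 of these genes were higher and 10 lower, and 2954 and 1826 of all genes. Fewer genes were tested, and rises then outnumbered falls among these genes and among all genes. The falls left out included Gsta2, Gsto2, Nqo1 and Sod3, which average under 10 FPKM. With the replicate block 19 and 23 of these genes, and 4762 and 4597 of all genes, were higher and lower, and of the calls on these genes it changed that of Gsr (adjusted p = 0.0518). Same-numbered libraries did not deviate together (correlations -0.00713, -0.0160 and 0.0966), so the numbers are not read as pairs. In limma-voom 20 of these genes were higher and 25 lower, Prdx4 and Txnrd2 being gained. Median-ratio scaling moved the median of all genes from 0.01 to 0.02. Sign changes were found in genes that did not pass in any setting: without 1 library, Gclm ranged from -0.02 to 0.07, Gpx7 from -0.05 to 0.01, Gstk1 from -0.08 to 0.06, Gstp1 from -0.04 to 0.10, Gstz1 from -0.05 to 0.03, Sod1 from 0.00 to 0.05, Txndc5 from -0.05 to 0.02, Txndc11 from -0.07 to 0.06, Txndc12 from -0.03 to 0.05, Txndc15 from -0.04 to 0.03 and Txnl1 from -0.02 to 0.02, Gstk1 and Txnl1 were 0.00 in limma-voom, and Txndc15 was 0.00 under median-ratio scaling. Txndc2, Sod3 and Gstm3 had larger changes at a pseudocount of 0.1 FPKM (-1.27, -2.21 and -2.40) and in limma-voom (-1.34, -2.34 and -2.60) than at 1 FPKM, by the construction of the scale. Of the 17 genes that did not pass, 16 had a 95% interval within 0.3 of 0 on the log2 scale. Gstm3 and Gstp2 rest on the fewest reads, 3 in their lowest library.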
